A study of Mus musculus with 6 samples.

Results

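The genes examined here encode the subunits, regulators and assembly chaperones of the proteasome. They were selected by symbol (Psma, Psmb, Psmc, Psmd, Psme, Psmf or Psmg followed by a number), which gave 48 of the 46603 genes in the count tables. Of these, 47 had enough counts to be tested and 1, Psmb11, did not. The selection was divided into the 5 inducible subunits (Psmb8, Psmb9, Psmb10, Psme1 and Psme2) and 43 others, 42 of them tested. The question addressed was whether lipopolysaccharide (LPS), a bacterial cell wall component, changed the transcripts of the inducible subunits against those of the rest of the particle.

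RNA was sequenced from cultured enteric glial cells (EGCs), which accompany the neurons of the intestine, in 3 untreated control libraries and 3 libraries of cells given LPS at 100 ng/ml for 12 h. In both groups the cells came from neurospheres made from the total intestine of C57BL/6J embryos (E14.5), which were expanded for a week with B27, EGF and FGF and then grown in serum on coated plates until confluent. The labels and methods name no allele, transgene or sort in either group, so cells of the intestine other than glia could remain in the cultures. The labels gave a replicate number per library but not whether the libraries came from separate litters or cultures, so that the p-values measure only the spread between these libraries.

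The proteasome degrades ubiquitin-tagged proteins. Its core is a barrel in which outer alpha rings enclose inner beta rings, and 3 of the beta subunits carry the proteolytic sites (Psmb5, Psmb6 and Psmb7 in most cells). A regulatory cap, made of a base with a ring of ATPases and a lid, recognises, unfolds and feeds in the substrate. Under interferon, newly assembled cores take up Psmb8, Psmb9 and Psmb10 in place of Psmb5, Psmb6 and Psmb7, and Psme1 with Psme2 forms an alternative cap. The resulting immunoproteasome is known for generating peptides that fit class I major histocompatibility molecules.

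The libraries held 18775316 to 23664312 counts. Levels are given as CPM, counts scaled to a common library size of 1e6, on library sizes corrected for composition, and 3 counts, taken as the floor of detection, corresponded to 0.124 to 0.167 CPM. The glial gene Sox10 was at 101, 89.5 and 73.8 CPM in control and 76.8, 78.2 and 75.9 CPM in LPS, and the sum over 8 glial markers was 373 to 540 CPM in control and 401 to 415 CPM in LPS. Of these 8, S100b (-1.91 on the log2 scale, adjusted p = 0.0238) and Cdh19 (-0.66, adjusted p = 0.0457) fell with LPS, Fabp7 rose (1.29, adjusted p = 0.0122) and 5, Sox10 among them, did not pass the test. Transcripts of other cell types were abundant: 8 mesenchymal markers summed to 15603 to 16295 CPM in control and 15124 to 15842 CPM in LPS, and 8 smooth muscle markers to 2290 to 2523 and 640 to 911 CPM. Of the 8 mesenchymal markers, Dcn (0.90 on the log2 scale, adjusted p = 0.0118) and Pdgfra (0.50, adjusted p = 0.0114) were called higher and 6 were not called, beside 9.09% of all genes called higher. The 7 smooth muscle markers tested were all called lower in LPS, as were 6.71% of all genes. The part of the mesenchymal, smooth muscle and glial changes in the results was not tested. Both libraries numbered 3 stood apart by their macrophage transcripts, and all 12 macrophage markers together summed to 4218, 5477 and 12940 CPM in control libraries 1, 2 and 3 and to 4096, 5314 and 20357 CPM in LPS libraries 1, 2 and 3. The same libraries were lowest in neuron transcripts, with 6 neuron markers summing to 412, 409.8 and 244 CPM in control libraries 1, 2 and 3 and to 381, 399.8 and 259 CPM in LPS libraries 1, 2 and 3, and the part of these transcripts in the results was not tested. In such bulk libraries, fewer cells of a type and less RNA per cell cannot be told apart.

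All 5 inducible subunits rose with LPS, by 1.62 to 3.29 on the log2 scale (adjusted p under 0.05, edgeR quasi-likelihood test), with a median log2 fold change of 2.50. Of the 42 other genes tested, 19 rose, 0 fell and 23 did not pass the test. Over all 15226 genes tested, 9.09% were called higher and 6.71% lower (15.8% in either direction). The median log2 fold change of the 42 was 0.34 (quartiles 0.22 and 0.42), beside -0.02 (quartiles -0.32 and 0.25) over all genes. Without adjustment for multiple testing, 31 of the 42 were higher and 1 (Psmg2) lower at p under 0.05, beside 16.1% of all genes higher and 16% lower. DESeq2 called 27 of the 42 higher and 1 (again Psmg2) lower, beside 13.7% and 11% of all genes. With the replicate number as a block in the edgeR fit, 28 of the 42 were called higher and 0 lower, beside 15.4% and 14.9% of all genes. In 34 of the 42, every LPS library lay above every control library, a pattern seen in 19.3% of all genes, and in 1 every LPS library lay below (19.4% of all genes; 38.7% were free of overlap in either direction). The calls among the 42 depended on the libraries and the scaling: 2 were left without control 1, control 2 or LPS 2, 4 without LPS 1, and 6 with scaling by library size alone or without a filter on low counts. The number of all genes called higher fell as well, from 1384 to 470, 379 and 523 without control 1, control 2 and LPS 2, respectively. It was 619 without LPS 1, 986 with library size alone and 1114 without a filter. Scaling by library size alone moved the median over all genes to -0.18. Relative to the median of all genes, that of the 42 was 0.36 under this scaling and under the one used here. Log2 fold changes above 0, not taken relative to that median, were found in 33 of the 42 with library size alone. They were found in 38 under the scaling used here, beside 7311 of the 15226 genes tested.

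**Figure D1:**
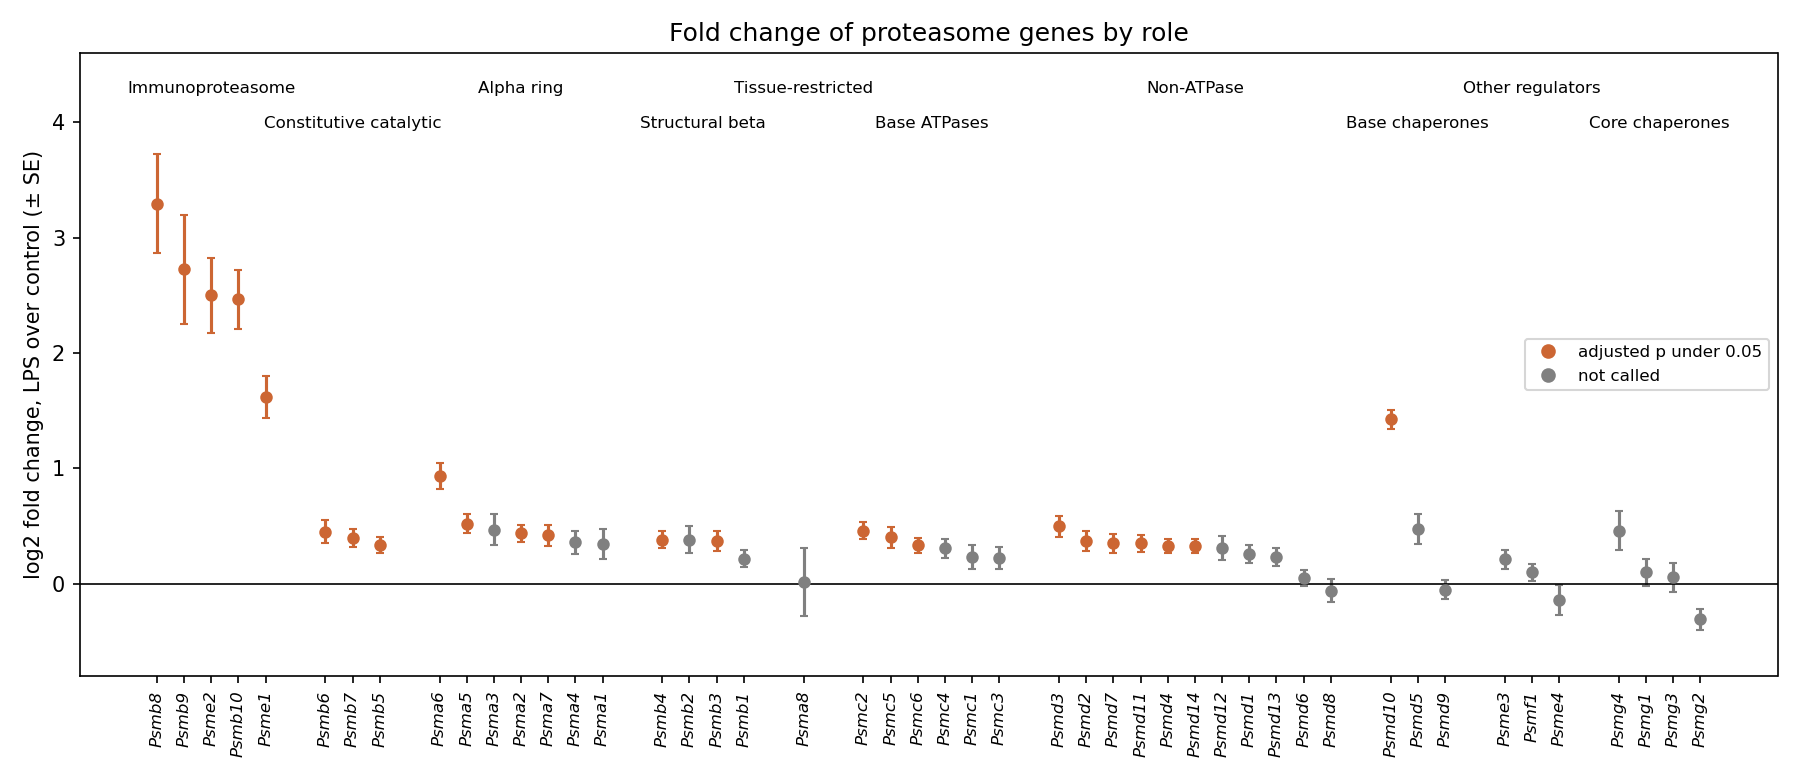
Log2 fold change of LPS over control (vertical axis, points with standard errors) for the 47 proteasome genes tested, grouped by role, with called genes in orange and genes not called in grey. The 5 inducible subunits lie between 1.62 and 3.29, Psmd10 at 1.42 and Psma6 at 0.93, while every other gene lies between -0.31 and 0.52.

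As part of all counts, the 48 genes together took 0.422% to 0.427% in control and 0.496% to 0.544% in LPS. Within these proteasome counts, the 5 inducible subunits accounted for 2.29%, 2.30% and 3.14% in control libraries 1, 2 and 3 and for 7.97%, 9.46% and 12.0% in LPS libraries 1, 2 and 3. Both shares were higher in every LPS library than in any control library, and in each group the library numbered 3 had the highest inducible share.

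Among the inducible catalytic subunits, Psmb8, which takes the chymotrypsin-like site of Psmb5, was at 9.24, 11.6 and 24.5 CPM in control libraries 1, 2 and 3 and at 118, 139 and 189 CPM in LPS libraries 1, 2 and 3. The groups were well separated, with control 3 the highest of the controls. The log2 fold change was 3.29 ± 0.43 (± SE, n = 3 per group, as for all log2 fold changes given with an error), or 9.81-fold, with an adjusted p of 0.00801. The exons of Psmb8 overlap those of Gm20496, on the opposite strand, over 14.7% of their length, and the strand setting of the counting was not stated.

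Psmb9, which replaces Psmb6, was at 1.95, 2.48 and 5.04 CPM in control and 13.98, 18.3 and 30.6 CPM in LPS. Its log2 fold change was 2.73 ± 0.47, with an adjusted p of 0.0178. Library 3 was again the highest of each group, and no control library reached the lowest LPS library. Of the Psmb9 exon length, 5.79% is shared with Tap1 on the opposite strand.

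Psmb10, which replaces Psmb7, was at 12.6, 13.6 and 20.0 CPM in control and 68.4, 78.7 and 108 CPM in LPS, again without overlap. This gave a log2 fold change of 2.46 ± 0.26 (adjusted p = 0.00371), and Psmb10 was called in all 15 alternative analyses. Psmb8 lost its call without control 2 (adjusted p = 0.0546), and Psmb9 without control 1 (0.0692), control 2 (0.0931) or LPS 2 (0.0630). Over the 15 alternatives the log2 fold change ran from 3.04 to 3.85 for Psmb8 and from 2.35 to 3.25 for Psmb9.

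The activator subunits Psme1 and Psme2 form a ring that opens the core without ubiquitin or ATP. Psme1 was at 41.5, 42.4 and 47.2 CPM in control and 109, 121 and 172 CPM in LPS, a log2 fold change of 1.62 ± 0.19 (adjusted p = 0.00510), and was called in all 15 alternatives. Psme2 was at 24.3, 22.4 and 33.5 CPM in control and 98.8, 139.8 and 215 CPM in LPS, a log2 fold change of 2.50 ± 0.33 (adjusted p = 0.00815, and 0.0553 without control 2). Neither gene's groups overlapped, and both were highest in LPS 3. Psme2 shares 28.3% of its 50-base words with other genes, chiefly Psme2b, a near-identical copy on chromosome 11, and how the counting treated reads that fit both is not given in the sources used here. Psme2b was at 19.9, 21.8 and 16.8 CPM in control and 46.4, 35.8 and 33.8 CPM in LPS (log2 fold change 0.99 ± 0.16, adjusted p = 0.0161), and LPS 3 was here the lowest of the LPS libraries.

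**Figure D2:**
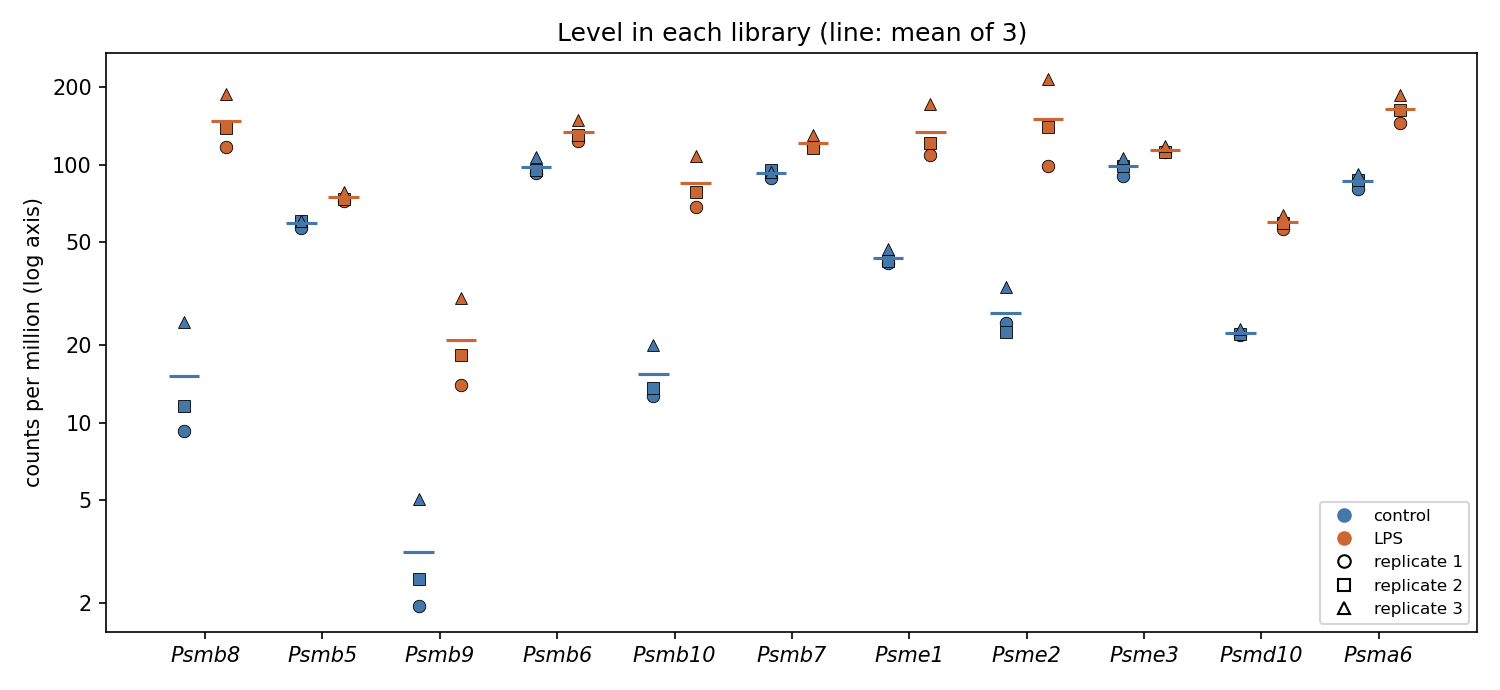
CPM of 11 proteasome genes in each library on a log axis, with control in blue, LPS in orange, symbols by replicate number and a line at the mean of 3. The LPS points of Psmb8, Psmb9, Psmb10, Psme1 and Psme2 lie far above the control points, those of Psmb5, Psmb6 and Psmb7 slightly above, and library 3 is the highest of its group for each inducible subunit.

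Because the macrophage markers and the inducible subunits were both highest in the libraries numbered 3, the change was also followed within each number. The macrophage sum differed between LPS and control by -0.04, -0.04 and 0.65 on the log2 scale in numbers 1, 2 and 3. The sum hides unequal changes: 6 of the 12 log2 fold changes were positive and 6 negative, and Lyz2 alone supplied 56.4% to 68.5% of it. Adgre1 was called higher (159, 229 and 472 CPM in control, 952, 1261 and 3699.6 CPM in LPS), while Mrc1 was at 197, 331 and 752 CPM in control and 9.29, 10.4 and 131 CPM in LPS, with every LPS library below every control library (log2 fold change -3.08, adjusted p = 0.145, and 0.0124 with the replicate block). With that block, 3 of the 12 macrophage markers were called higher (Adgre1, Fcgr1 and Ptprc) and 4 lower (Mrc1, Cd68, Tyrobp and Cx3cr1). Over the same numbers, Psmb8 differed by 3.67, 3.58 and 2.95, Psmb9 by 2.84, 2.88 and 2.60 and Psmb10 by 2.44, 2.53 and 2.43. Psme1 differed by 1.40, 1.52 and 1.86 and Psme2 by 2.03, 2.64 and 2.68. All 5 were higher in LPS within each number. With both libraries numbered 3 left out, all 5 inducible subunits were called, with a median log2 fold change of 2.51. In that fit, 3498 of 15466 genes were called higher and 3159 lower. The part of macrophage transcripts in these results was not tested, nor was which cells of the culture carried the subunits.

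**Figure D3:**
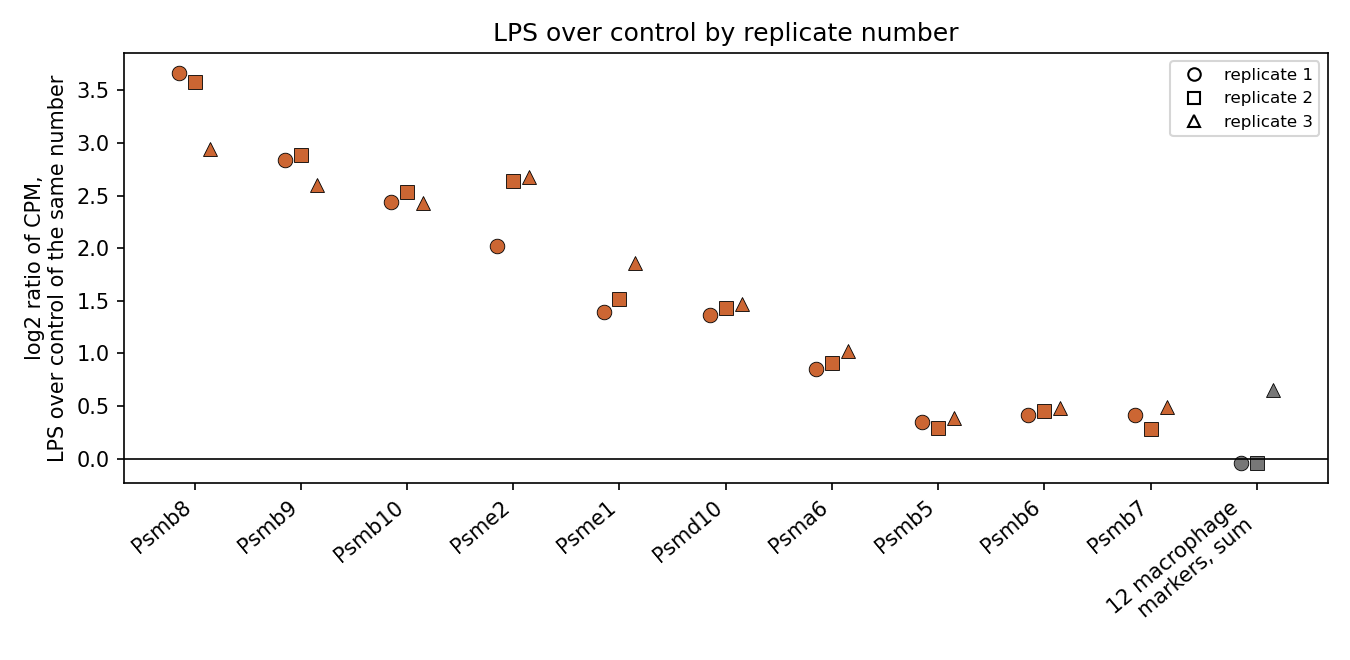
Log2 ratio of CPM, LPS over the control library of the same replicate number, for 10 proteasome genes and for the sum of 12 macrophage markers (grey). The macrophage sum sits at -0.04, -0.04 and 0.65, Psmb8 between 2.95 and 3.67 and Psmd10 between 1.37 and 1.47.

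Psmb8 and Psmb9, and Psme1 and Psme2, lie in pairs in the mouse genome (GRCm38). Psmb9 (chr17:34181987-34187764, minus strand) and Psmb8 (chr17:34197721-34201454, plus strand) lie 9956 bases apart in the major histocompatibility region, and the RefSeq start sites of Psmb9 and of the peptide transporter gene Tap1 are divergent and 226 bases apart. Psme1 (chr14:55578123-55581529, plus strand) and Psme2 (chr14:55587441-55591113, minus strand) are separated by 5911 bases. Psmb10 is at chr8:105935735-105938444 on the minus strand. Psmb5 (chr14:54614119-54618022, minus strand) lies 3410 bases from Psmb11.

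The sequence at the starts of these genes was read for short motifs known from interferon and proteasome regulation. RefSeq windows on GRCm38.p6 of 300 bases (250 before and 50 after the start) were found for 40 of the 48 genes, all 5 inducible subunits among them. Of 4 motifs searched on both strands, GAAANNGAA, the core of an interferon response element, occurred in 7 of the 40 genes (Psmb3, Psmb4, Psmc2, Psmd4, Psmd9, Psme1 and Psmg4) and in 8.56% of all 32851 windows. TTCNNNGAA, the palindrome bound by STAT factors, occurred in Psmb8, Psmd2 and Psmg1 and in 8.30% of all windows. TGACNNNGC, the core of the element bound by NRF factors, occurred in 6 genes (Psmb5, Psmb6, Psmc6, Psmd9, Psmd12 and Psme4) and in 12.39% of all windows. The NF-kB consensus occurred in 6 genes (Psma6, Psma7, Psmd11, Psmd12, Psmd13 and Psme4) and in 8.46% of all windows. In Psmd9, Psmd12 and Psme4, which matched more than 1 motif, the matches did not overlap. The windows of Psmb9, Psmb10 and Psme2 held no match to these letters. The matches in Psmb8, Psme1 and in the catalytic counterparts Psmb5 and Psmb6 are shown with their flanks in 30 bases, on the strand of the gene, since these are the genes compared most closely; capitals mark the match.
Psmb8 (chr17:34198088-34198117, plus strand): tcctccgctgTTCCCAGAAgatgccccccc
Psme1 (chr14:55578494-55578523, plus strand): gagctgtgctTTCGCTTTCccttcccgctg
Psmb5 (chr14:54618023-54618052, minus strand): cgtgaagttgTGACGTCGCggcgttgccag
Psmb6 (chr11:70525338-70525367, plus strand): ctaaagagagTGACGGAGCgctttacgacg
The match began 97 bases before the start in Psmb8, 47 before it in Psmb5 and 9 before it in Psmb6, and 10 bases after it in Psme1. The Psme1 letters are the motif read on the other strand. Members that rose strongly and members that did not were thus found both with and without a match.

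The constitutive catalytic subunits rose as well, by far less. Psmb5 was at 57.1, 60.4 and 60.5 CPM in control and 72.6, 73.7 and 78.8 CPM in LPS (log2 fold change 0.34 ± 0.068, adjusted p = 0.0273). Psmb6, which carries the caspase-like site, was at 92.9, 95.5 and 107 CPM in control and 124, 131 and 149 CPM in LPS (log2 fold change 0.45 ± 0.10, adjusted p = 0.0368). Psmb7, with the trypsin-like site, was at 89.0, 95.5 and 93.5 CPM in control and 119, 116 and 131 CPM in LPS (log2 fold change 0.40 ± 0.077, adjusted p = 0.0243). None of the 3 had overlapping groups, but each kept its call in 9 of 15 alternatives. Psmb5 shares 54.1% of its 50-base words with other genes, among them the copy Psmb5-ps.

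To compare the members of a pair, counts were divided by exon length, and the inducible subunit was expressed as a share of the pair. Psmb8 made up 4.13%, 4.86% and 9.74% of Psmb8 plus Psmb5 in control and 30.1%, 33.4% and 39.0% in LPS, with means of 6.24% ± 3.05 and 34.1% ± 4.49 (SD, n = 3). Psmb9 made up 1.06%, 1.31% and 2.36% of Psmb9 plus Psmb6 in control and 5.47%, 6.66% and 9.47% in LPS. Psmb10 made up 22.2%, 22.2% and 30.1% of Psmb10 plus Psmb7 in control and 53.6%, 57.6% and 62.3% in LPS. On this scale Psmb10 alone of the 3 exceeded its counterpart, and it did so in every LPS library, while Psmb9 reached at most 9.47% of its pair. These shares depend on the length used, which the fold changes do not. The Psmb8 share may also depend on how reads that Psmb5 shares with other genes were counted, which is not given. With the length of 1 principal transcript in place of all exons, the mean share in LPS was 51.7% ± 4.94 for Psmb8, 8.21% ± 2.32 for Psmb9 and 37.8% ± 4.22 for Psmb10 (SD, n = 3). In control it was 12.0% ± 5.48 for Psmb8, 1.81% ± 0.788 for Psmb9 and 12.8% ± 2.76 for Psmb10. The control ranges of 1 SD of Psmb8 and Psmb10 thus overlapped. On that length Psmb8 was at 47.2%, 51.0% and 57.0% in LPS libraries 1, 2 and 3, above its counterpart in LPS 2 and 3 but not in LPS 1, and Psmb10, at 33.8%, 37.5% and 42.2%, was below its counterpart in every LPS library. Which of these 2 subunits exceeded its counterpart in LPS therefore depended on the length.

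**Figure D4:**
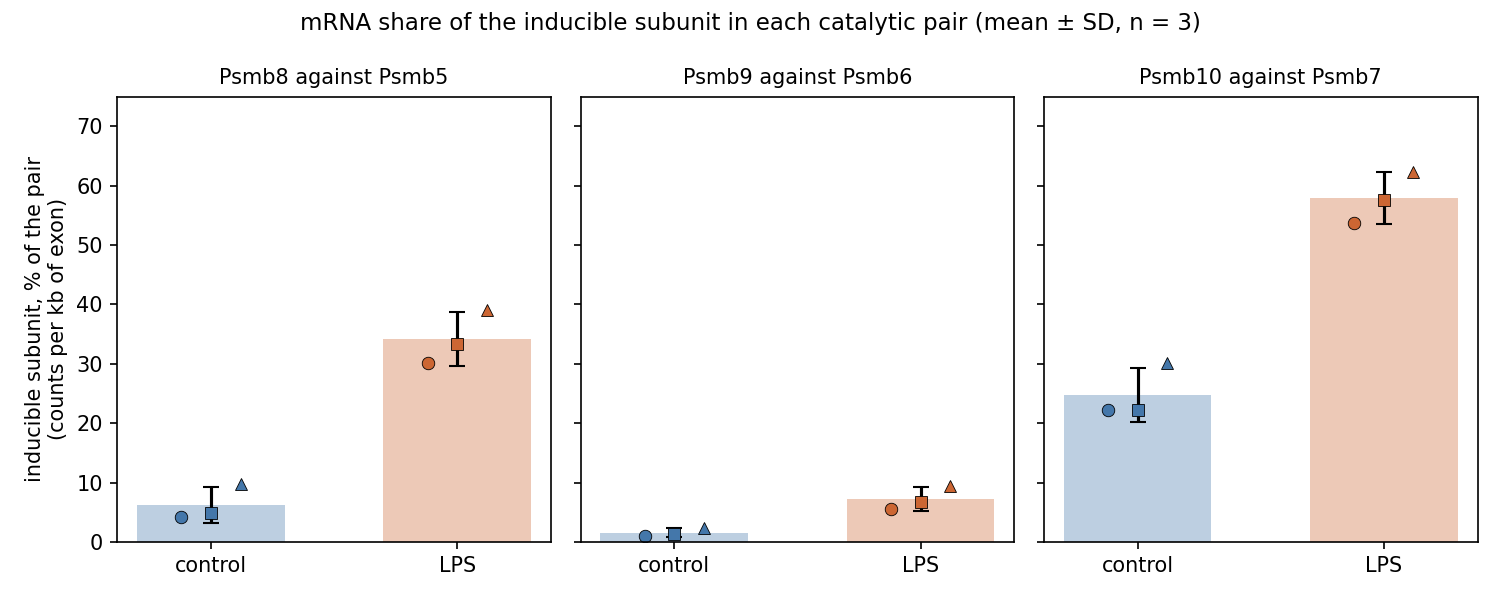
Share of the inducible subunit in each catalytic pair (vertical axis, percent of the pair's counts per kb of exon), with bars at the mean of 3 libraries, error bars of 1 SD and symbols for single libraries. Each LPS point lies above each control point of its pair, with LPS means of 34.1%, 7.20% and 57.9% for Psmb8, Psmb9 and Psmb10.

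The log2 ratio of inducible to constitutive subunit was higher in LPS than in control by 3.06 for Psmb8 to Psmb5, 2.32 for Psmb9 to Psmb6 and 2.07 for Psmb10 to Psmb7. Against Psme3, which forms a related nuclear cap, the ratio of Psme1 was higher by 1.38 and that of Psme2 by 2.23. Each of the 5 ratios was higher in all 3 LPS libraries than in any control library, and a two-sided exact permutation test gave p = 0.1 for each (0.1 after Benjamini-Hochberg adjustment over the 5), the lowest p that 3 against 3 libraries allow. Within numbers 1, 2 and 3 the difference was 3.32, 3.29 and 2.57 for Psmb8 to Psmb5 and 2.02, 2.25 and 1.94 for Psmb10 to Psmb7. Psme3 itself was at 90.3, 99.2 and 107 CPM in control and 112, 113 and 118 CPM in LPS and was not called (log2 fold change 0.21 ± 0.083, adjusted p = 0.144).

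Outside the inducible set, Psmd10 and Psma6 stood out in size. Psmd10 (gankyrin, chrX:140948429-140956728, minus strand), a chaperone that assists assembly of the ATPase base and is not part of the finished particle, was at 21.9, 22.1 and 23.1 CPM in control and 56.4, 59.7 and 64.0 CPM in LPS. The spread within each group was narrow and every LPS library lay far above every control library. Its log2 fold change of 1.42 ± 0.081 had the lowest adjusted p of the 47 genes tested (0.000473), and it was called in all 15 alternatives, with an adjusted p of at most 0.00962. Psmd10 shares no exon with another annotated gene and no 50-base word with another transcript. Across numbers 1, 2 and 3 the difference was 1.37, 1.43 and 1.47, and unlike Psmb8, Psmb9 and Psmb10 it was at nearly the same level in control 3 as in controls 1 and 2.

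Psma6 (chr12:55384222-55418454, plus strand), a subunit of the alpha ring, was at 80.8, 87.0 and 91.9 CPM in control and 146, 164 and 186 CPM in LPS. The groups did not overlap, and the log2 fold change was 0.93 ± 0.11 (adjusted p = 0.00617, and at most 0.0462 over the 15 alternatives, in all of which it was called). Together with Psmb10, Psme1 and Psmd10 it was among the 4 genes called in every alternative.

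Of the 7 alpha ring genes, 4 rose (Psma2, Psma5, Psma6 and Psma7), and the log2 fold changes of all 7 ran from 0.35 (Psma1) to 0.93 (Psma6) with a median of 0.44. Psma5 was at 57.0, 54.4 and 61.0 CPM in control and 76.4, 86.3 and 84.3 CPM in LPS (log2 fold change 0.52 ± 0.082, adjusted p = 0.0140), with 49.96% of its 50-base words shared with other genes. Psma2 was at 109, 109 and 107 CPM in control and 138, 146 and 156 CPM in LPS (log2 fold change 0.44 ± 0.072, adjusted p = 0.0157). Psma7 was at 92.0, 95.3 and 98.1 CPM in control and 118, 123 and 141 CPM in LPS (log2 fold change 0.42 ± 0.09, adjusted p = 0.0325). In all 7 genes, including Psma1, Psma3 and Psma4 which did not pass the test, the groups were free of overlap. With the replicate number as a block, these 3 were also called (adjusted p = 0.0216, 0.0302 and 0.0253), so that all 7 were.

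Among the 4 beta subunits without a proteolytic site, 2 rose and the log2 fold changes ran from 0.22 (Psmb1, not called) to 0.38 (Psmb4). Psmb4 was at 98.7, 107 and 108 CPM in control and 135, 132 and 143 CPM in LPS (log2 fold change 0.38 ± 0.074, adjusted p = 0.0238). Psmb3 was the other called gene (0.37, adjusted p = 0.0411), and Psmb2, at 0.38, missed the threshold (adjusted p = 0.0832, and 0.0200 with the replicate block).

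The 6 ATPases of the base unfold the substrate. Psmc2, Psmc5 and Psmc6 rose, and all 6 log2 fold changes lay between 0.22 (Psmc3) and 0.46 (Psmc2). Psmc2 was at 112, 111 and 122 CPM in control and 157, 154 and 165 CPM in LPS (adjusted p = 0.0139). Psmc6 was at 136, 138 and 130.1 CPM in control and 172, 166 and 171 CPM in LPS (log2 fold change 0.33 ± 0.064, adjusted p = 0.0235). In none of the 6 did the groups overlap, and Psmc4 was called in addition with the replicate block (adjusted p = 0.0185).

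Of the 11 non-ATPase subunits of the cap, 6 rose (Psmd2, Psmd3, Psmd4, Psmd7, Psmd11 and Psmd14), with a median log2 fold change of 0.33 over the 11. Psmd3, a lid subunit, was at 108, 106 and 118 CPM in control and 150.5, 147 and 172 CPM in LPS (log2 fold change 0.50 ± 0.093, adjusted p = 0.0221). Psmd4, a ubiquitin receptor, was at 96.3, 94.7 and 95.1 CPM in control and 121, 116 and 122 CPM in LPS (log2 fold change 0.33 ± 0.06, adjusted p = 0.0207). The deubiquitinase of the lid, Psmd14, was at 90.4, 91.3 and 94.6 CPM in control and 114, 114 and 119 CPM in LPS (log2 fold change 0.33 ± 0.062, adjusted p = 0.0229). In each of the 3, the lowest LPS library lay above the highest control library.

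The lid subunit Psmd11 was at 85.7, 80.5 and 89.6 CPM in control and 111, 104 and 111 CPM in LPS (log2 fold change 0.35 ± 0.073, adjusted p = 0.0294). A pair of lid genes, Psmd8 and Psmd6, were not called. Psmd8 was at 224, 243 and 259 CPM in control and 232, 251 and 213 CPM in LPS, and Psmd6 at 85.3, 88.1 and 86.9 CPM and 84.8, 88.8 and 95.5 CPM. Their groups overlapped and their log2 fold changes were -0.06 and 0.05, with adjusted p of 0.717 and 0.694, and either sign changed under another setting. Psmd1, Psmd12 and Psmd13 were not called without the block but were with it (adjusted p = 0.0294, 0.0398 and 0.0479).

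The remaining chaperones did not pass the test without the block. Among the other base chaperones, Psmd5 was at 60.8, 60.3 and 55.0 CPM in control and 91.2, 85.9 and 66.9 CPM in LPS (log2 fold change 0.47 ± 0.13, adjusted p = 0.0619, and 0.0187 with the replicate block), and Psmd9 had a log2 fold change of -0.05, with overlapping groups and 25.5% of its exon length shared with Gm26745 on the opposite strand. The chaperones Psmg1, Psmg2, Psmg3 and Psmg4 assemble the core, and none of the 4 was called, with log2 fold changes from -0.31 to 0.46. Psmg2 was at 16.6, 17.1 and 16.3 CPM in control and 13.98, 12.8 and 13.5 CPM in LPS, the single gene of the 47 whose LPS libraries all lay below the controls (adjusted p = 0.0720). Psmg4 was at 4.28, 4.91 and 5.25 CPM in control and 5.83, 7.52 and 6.49 CPM in LPS (adjusted p = 0.124).

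Psme4, an activator linked to histone turnover, was at 187, 186 and 163 CPM in control and 147, 147 and 192 CPM in LPS. LPS 1 and 2 lay below every control library and LPS 3 above them, and the log2 fold change of -0.14 ± 0.13 was not called (adjusted p = 0.511). Without both libraries numbered 3, Psme4 was called lower (adjusted p = 0.00296), as were 3159 of the 15466 genes tested in that fit. This was the only 1 of the 15 alternatives in which Psme4 was called. LPS 3 was also the library with the highest macrophage sum, and the part of the latter in the Psme4 value was not tested. Psmf1, an inhibitor of the core, had a log2 fold change of 0.10 (adjusted p = 0.405), which turned negative under upper-quartile or library-size scaling.

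The tissue-restricted core genes had few counts. Psma8, the alpha subunit of the testis, was at 0.763, 1.11 and 1.07 CPM in control and 0.939, 0.780 and 1.26 CPM in LPS. Psmb11, the catalytic subunit of the thymic cortex, had 1 count in control 1 and 0 counts in the other 5 libraries, below the floor of 3 counts.

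Levels per kb of exon, taken over all annotated exons, differed between subunits that occupy equal positions in the particle. In the alpha ring, the control mean ran from 17.1 ± 2.92 CPM per kb (SD, n = 3) for Psma3 to 70.1 ± 4.49 for Psma6. In LPS, Psma6 reached 134 ± 16.5 CPM per kb, and Psma5, at 62.3 ± 3.94, was next in that ring. Among the catalytic genes in control, the order of mean levels was Psmb5 (66.0 ± 2.18), Psmb6 (52.6 ± 3.97), Psmb7 (27.1 ± 0.980), Psmb10 (9.04 ± 2.37), Psmb8 (4.47 ± 2.44) and Psmb9 (0.863 ± 0.452 CPM per kb), with the gap between neighbours larger than their SDs except between Psmb10 and Psmb8, whose ranges of 1 SD overlapped. In LPS the order became Psmb5 (83.4 ± 3.67), Psmb6 (71.9 ± 7.11), Psmb10 (49.9 ± 12.1), Psmb8 (43.9 ± 10.9), Psmb7 (35.6 ± 2.34) and Psmb9 (5.72 ± 2.35 CPM per kb), where the libraries of Psmb8 overlapped those of Psmb10 and Psmb7, and Psmb10 lay above Psmb7 in every library. These orders depend on the length used. The places of Psmb5 and Psma5 may also depend on how reads shared with other genes were counted. With the principal transcript length, the control order was Psmb6 (123 ± 9.31), Psmb7 (79.9 ± 2.89), Psmb5 (66.0 ± 2.18), Psmb10 (11.8 ± 3.08), Psmb8 (9.29 ± 5.06) and Psmb9 (2.33 ± 1.22 CPM per kb). That of the LPS means was Psmb6 (169 ± 16.7), Psmb7 (105 ± 6.90), Psmb8 (91.2 ± 22.6), Psmb5 (83.4 ± 3.67), Psmb10 (64.9 ± 15.7) and Psmb9 (15.5 ± 6.37 CPM per kb). There the range of 1 SD of Psmb8 overlapped those of Psmb7, Psmb5 and Psmb10, and those of Psmb5 and Psmb10 overlapped as well. The alpha ring changed its order as well, to Psma7 (104 ± 3.37), Psma4 (85.5 ± 2.66), Psma6 (83.1 ± 5.32), Psma1 (76.0 ± 6.76), Psma5 (46.4 ± 2.70), Psma2 (37.3 ± 0.452) and Psma3 (23.4 ± 4.0 CPM per kb) in control, where Psma4, Psma6 and Psma1 were not separated by their SDs. In LPS the alpha ring ran from Psma6 (158 ± 19.5) and Psma7 (139 ± 13.6), whose ranges of 1 SD overlapped, over Psma4 (109.6 ± 12.5), Psma1 (96.6 ± 14.6), Psma5 (66.5 ± 4.20) and Psma2 (50.5 ± 3.02) to Psma3 (32.4 ± 0.888 CPM per kb), so that Psma5 no longer followed Psma6.

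Genes that act before and after the proteasome were examined from lists, whose counts stand beside the 9.09% of all genes called higher and the 6.71% called lower. The ubiquitin, partner and transcription lists hold 4 to 13 genes, and nothing particular to these 3 lists is read from their counts. In the ubiquitin list, 2 of 6 rose, the polyubiquitin gene Ubb (0.56 on the log2 scale, adjusted p = 0.0102) and the ubiquitin-activating enzyme Uba1 (0.40, adjusted p = 0.0228), and the median log2 fold change was 0.39. Of 13 proteasome partners measured, 2 rose, the core maturation factor Pomp (0.43, adjusted p = 0.0243) and the ubiquitin receptor Adrm1 (0.42, adjusted p = 0.0276), and the median was 0.10, while the deubiquitinase Uchl5 (-0.44, adjusted p = 0.249) was called lower with the block (adjusted p = 0.0393). Among 4 genes that control proteasome transcription, Nfe2l1, the factor that raises proteasome genes when the particle is inhibited, rose (0.33, adjusted p = 0.0334), and Nfe2l2, Ddi2 and Ngly1 were not called.

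Downstream, 11 of 12 genes of class I peptide supply and loading rose, with a median log2 fold change of 2.04. Tap1, the transporter subunit that shares its start region with Psmb9, was at 19.2, 19.3 and 19.1 CPM in control and 110.3, 119 and 177 CPM in LPS (log2 fold change 2.82 ± 0.20, adjusted p = 0.00109). Its control libraries were level, unlike those of Psmb9, of which control 3 was the highest. The loading factor Tapbp had a log2 fold change of 2.89, the class I light chain B2m of 2.39 and the trimming peptidase Erap1 of 1.72, and the lectin chaperone Canx (0.19) was the gene not called. Of 10 genes of the interferon axis, 8 rose with a median log2 fold change of 1.53, among them Stat2 (2.98) and Irf1 (1.99), and the receptor subunit Ifnar1 (0.54, adjusted p = 0.132) was called in addition with the replicate block (adjusted p = 0.00598).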

How the data were processed

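Poly(A) RNA libraries from 3 control and 3 LPS-treated EGC samples were made with a stranded kit. The deposited files gave each gene's raw count. Per the labels and methods, the authors trimmed and filtered the reads (cutadapt 1.15), removed contaminants (Bowtie2 2.3.3.1) and aligned the rest to GRCm38 with STAR 2.5.2b and SAMtools 1.5. featureCounts 1.5.3 is listed in the submitters' processing notes. The strand setting and the treatment of reads with several alignments are not given in the sources used here.

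Genes with low counts were removed with filterByExpr (minimum count 10, minimum total 15), library sizes were corrected with TMM factors (0.917 to 1.08), and LPS was compared with control by the edgeR 4.0.16 quasi-likelihood test in R 4.3.3, two-sided, with Benjamini-Hochberg adjustment over 15226 genes and a threshold of 0.05. The SE is the absolute log2 fold change divided by the square root of F. Detection was judged by a floor of 3 counts, which is not a measure of counting error. The test was tested on simulated data. Exon lengths, overlaps and shared 50-base words came from GENCODE M21, start windows from RefSeq (GRCm38.p6).

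The members, their roles, the motifs and the gene lists were chosen with earlier results of these data known. The interferon and NF-kB motifs replaced stricter forms that were searched first and matched fewer windows. Named with the value in every library were the inducible subunits, Psmb5, Psmb6, Psmb7, Psme3, the 12 other called genes with the lowest adjusted p and genes at 3 counts or fewer, and the rest by range per role, with others named as examples after their values were seen. Alternatives were other scaling factors, other filters, DESeq2 1.42.0, limma-voom (limma 3.58.1), a block for the replicate number, and fits lacking 1 library each. Leaving out both libraries numbered 3 and using the principal transcript length were chosen after seeing the data.

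Whether numbers pair the libraries was judged by how far same-numbered libraries departed together from their group means. The correlation over genes was r = 0.51, 0.33 and 0.61 for numbers 1, 2 and 3, above the limit of 0.1. The calls reported nevertheless come from the fit without the block, as the methods state none, and the blocked value is given where it changes the call of a proteasome gene or of a gene of the macrophage, partner or interferon lists. Control 1 with LPS 2 (0.42) and control 2 with LPS 1 (0.32) correlated as well, so that numbers 1 and 2 were not told apart by this check. Departures were taken from means of 3 libraries, and number 3 stood apart in both groups. Passing the limit therefore does not show that each number pairs its libraries.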

Additional observations from a re-analysis of the deposited data

How the results depend on the processing

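All 5 inducible subunits stayed called under every other scaling, filter and tool and in the replicate block, and their median log2 fold change ran from 2.25 to 2.73 with 1 library left out. With 1 library left out, 2 to 5 of them were called (2, Psmb10 and Psme1, without control 2), beside 2 to 21 of the 42 other genes called higher. Over all genes, 491 to 3390 were then called in either direction (2406 with all libraries) and 379 to 1964 higher (1384 with all libraries). Of the 42, 6 were called higher with library size alone and 6 without a filter on low counts, 13 with upper-quartile factors, 28 in the replicate block and 30 without both libraries numbered 3. Over all genes, in the same order, 986 of 15226, 1114 of 24879, 1050 of 15226, 2343 of 15226 and 3498 of 15466 were called higher. In single settings, 1 of the 42 (Psmg2) was called lower with upper-quartile factors, library size alone or DESeq2, and 2 (Psmg2 and Psme4) without both libraries numbered 3. The median of the 42 was 0.24 under upper-quartile scaling and 0.19 when only library size was used, as the median over all genes moved to -0.12 and -0.18. Over all genes, 3752 were called with DESeq2, 4616 in the replicate block and 6657 without both libraries numbered 3. For the changes in counts of calls the cause was not tested. Among called genes no direction reversed under any of these settings. Among genes not called, 6 changed sign. With upper-quartile factors and with only library size, respectively, Psmg1 was at -0.0089 and -0.061, Psmg3 at -0.048 and -0.099, Psmd6 at -0.058 and -0.11, Psmf1 at -0.0065 and -0.058 and Psma8 at -0.089 and -0.14. Psma8 was at -0.0023 without a filter and at -0.089, and Psmd8 at 0.071, without both libraries numbered 3. With 1 library left out, Psmd6 ran from -0.0018 to 0.088, Psmd8 from -0.12 to 0.0069 and Psma8 from -0.19 to 0.16. For the pair ratios, an exact sign-flip permutation test over 3 pairs in place of the unpaired test gave p = 0.25, the lowest it allows. The replicate block added 9 calls among the 42 (Psma1, Psma3, Psma4, Psmb2, Psmc4, Psmd1, Psmd5, Psmd12 and Psmd13) and removed none. Genes at about 1 CPM, such as Psma8, had too few counts for a small change to be detectable.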
